A study of Homo sapiens with 2 samples.

Results

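In doxorubicin-resistant SUM159 cells the cytoskeletal actins ACTB and ACTG1 and the tropomyosins TPM2 and TPM4 led their families per length, and the smooth-muscle-type genes ACTA2, TAGLN, CNN1 and MYL9 summed to 0.781 ± 0.248% of ACTB plus ACTG1 per length (SD, n = 2). These are levels in 1 condition, with no comparison against another. The 10 genes described here were taken by symbol from the 23368 gene symbols of the count data, and all 10 were found in both libraries. They are the actins ACTB, ACTG1 and ACTA2, the tropomyosins TPM1, TPM2, TPM3 and TPM4, and 3 further genes known as smooth muscle markers, TAGLN, CNN1 and MYL9. SUM159 is a triple-negative breast cancer cell line of mesenchymal character. The cells, of genotype Wt, were grown attached as a monolayer and had acquired resistance to doxorubicin, which poisons topoisomerase II, by repeated exposure to rising doses with recovery in drug-free medium. Polyadenylated RNA was sequenced in 2 bulk RNA-seq libraries of this condition, replicates 1 and 2, with 23044084 and 17985508 counts in genes. Treatment-naïve cells were not analysed here, so that no value below is a response to the drug. Whether separate cultures stand behind the libraries is not stated, and their spread, and any p-value, may measure technical variation alone.

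Actin monomers assemble into filaments that carry cell shape, migration and contraction. Nonmuscle cells build them from beta-actin and gamma-actin, the products of ACTB and ACTG1, whereas ACTA2 encodes the alpha-actin of smooth muscle, which myofibroblasts and myoepithelial cells also make. Tropomyosins are coiled-coil dimers that lie along the filament and set which myosins and severing factors can reach it. Calponin 1 (CNN1) and transgelin, also called SM22 (TAGLN), bind the filaments of smooth muscle, and MYL9 encodes a regulatory light chain of myosin II. Many of these genes are known targets of serum response factor (SRF), which binds the CArG box, a motif of CC, 6 bases that are A or T, and GG, and of its actin-regulated coactivators of the MRTF family.

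The promoters of members were searched for the CArG box as a description of sequence. RefSeq promoters on GRCh38.p14 were matched by symbol for 7 of the 10 members, with 12 start sites in all, and ACTB, TAGLN and MYL9 were not matched. In the 250 bases before the start, an exact CArG box, which as a pattern reads the same on both strands, was found at 2 of the 12 start sites, that of ACTG1 and the first of TPM4. Of all 35116 promoters of this length, 407 held an exact box (1.16%). With 1 position allowed to differ, 5 of the 12 start sites held a match, against 16.8% of all promoters. These were the start site of ACTG1, the second of ACTA2 and each start site of TPM4, so the matches came from few genes. The box of ACTG1 (chr17:81512800-81513049, minus strand) began 94 bases before the start, and that of TPM4 (chr19:16067288-16067537, plus strand) 173 bases before it. The second start site of ACTA2 (chr10:88952774-88953023, minus strand) held 2 matches that each differ from the box at 1 position, beginning 121 and 71 bases before the start. The start sites of TPM1, TPM2, TPM3 and CNN1 and the first of ACTA2 held no match to the box, exact or 1 position off, in this window. A match is a description of sequence, and binding was not measured. The 3 sequences run 5′ to 3′ towards the start, with the matches in capitals.
ACTG1: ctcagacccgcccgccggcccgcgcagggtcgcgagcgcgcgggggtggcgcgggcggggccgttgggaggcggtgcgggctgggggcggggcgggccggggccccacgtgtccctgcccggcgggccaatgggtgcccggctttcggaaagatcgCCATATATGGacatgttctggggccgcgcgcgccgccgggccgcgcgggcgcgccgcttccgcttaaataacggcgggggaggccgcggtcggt
TPM4, first start site: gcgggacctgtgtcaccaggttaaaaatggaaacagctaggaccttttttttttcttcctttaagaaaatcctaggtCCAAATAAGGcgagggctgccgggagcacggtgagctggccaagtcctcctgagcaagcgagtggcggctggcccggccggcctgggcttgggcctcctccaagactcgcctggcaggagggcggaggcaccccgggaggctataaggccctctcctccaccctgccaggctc
ACTA2, second start site: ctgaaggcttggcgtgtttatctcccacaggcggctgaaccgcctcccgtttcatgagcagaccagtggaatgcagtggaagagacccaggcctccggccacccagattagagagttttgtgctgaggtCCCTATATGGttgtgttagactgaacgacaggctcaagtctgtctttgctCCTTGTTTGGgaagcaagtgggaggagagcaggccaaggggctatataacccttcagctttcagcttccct

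The cytoskeletal actins held most of the members' reads. ACTB (ENSG00000075624), on chromosome 7 of GRCh37 from 5566040 to 5603533 on the minus strand, had 164156 counts in replicate 1 and 113575 in replicate 2. These are 7124 and 6315 counts per 1000000 counts of the library (CPM), or 6719 ± 572 CPM (SD, n = 2). ACTG1 (ENSG00000184009), on chromosome 17 from 79476439 to 79490873 on the minus strand, had 95727 and 62313 counts, or 3809 ± 488 CPM (SD, n = 2). Both were somewhat higher in replicate 1. The pair took 1.13% of all counts in replicate 1 and 0.978% in replicate 2, and 78.8 ± 2.55% of the counts of the 10 members (SD, n = 2). The 10 members together took 1.40% and 1.27% of all counts.

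ACTB led the actin family by level per length. A gene with longer transcripts collects more reads, so levels of different genes were compared as CPM per kb of exonic length, the summed length of all annotated exons of the gene in GENCODE. On this scale ACTB stood at 1525 ± 130 and ACTG1 at 940 ± 120 CPM per kb (SD, n = 2), with no overlap between the libraries' ranges. ACTB made up 61.1% and 62.5% of the 6 actins ACTB, ACTG1, ACTA2, ACTA1, ACTC1 and ACTG2 per length in replicates 1 and 2, or 61.8 ± 1.01%, and ACTG1 made up 38.0 ± 1.02% (SD, n = 2). The ratio of ACTB to ACTG1 per length was 1.58 in replicate 1 and 1.68 in replicate 2, so the make-up of the pair varied less between the libraries than the CPM of either gene.

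The smooth muscle actin ACTA2 (ENSG00000107796), on chromosome 10 from 90694831 to 90751096 on the minus strand, was read 434 times in replicate 1 and 297 times in replicate 2. Its CPM were 18.8 and 16.5, or 17.7 ± 1.64 CPM (SD, n = 2). Per kb of exonic length ACTB was 483 times ACTA2 in replicate 1 and 489 times in replicate 2. With the length of the longest coding transcript of each gene in place of all exons the mean ratio was 252, and with raw counts 380. ACTA2 made up 0.127 ± 0.00109% of the 6 actins per exonic length (SD, n = 2). A low level in bulk RNA can come from few cells or from little RNA in each cell, and these cannot be told apart here.

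The other actins were lower still or near the limit of detection, with 1 exception. ACTBL2, a beta-actin-like gene, had 32.7 and 32.9 CPM, or 32.8 ± 0.169 CPM (SD, n = 2), with a log2 ratio between the libraries of 0.01, and its level per kb of exonic length was 3.75 ± 0.368 times that of ACTA2. This order held for the longest coding transcript, with a ratio of 1.13, and turned for the canonical transcript, with 0.900. ACTG2, the gamma-actin of smooth muscle, had 44 counts in replicate 1 and 50 in replicate 2. The cardiac actin ACTC1 was listed at 0 in both libraries, which allows up to 0.130 and 0.167 CPM (3 counts). The skeletal actin ACTA1 had 0 and 1 counts, and the actin-fusion genes POTEE and POTEF had at most 2 counts in a library.

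**Figure D1:**
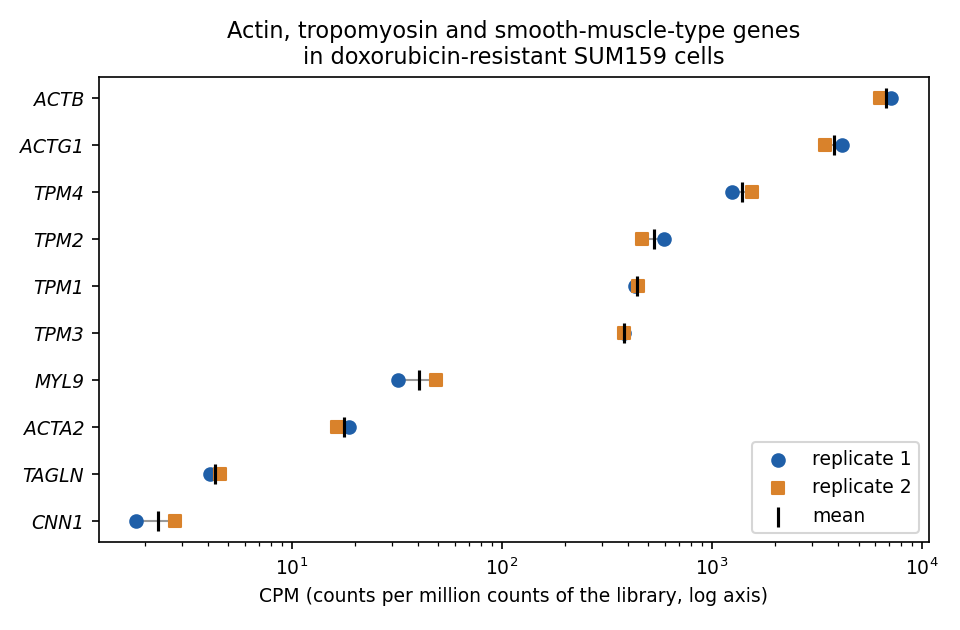
CPM of each of the 10 members (log axis, not corrected for length) in replicate 1 (circles) and replicate 2 (squares), with the mean of the libraries (bars). The members run from ACTB at 6719 CPM to CNN1 at 2.30 CPM, and the points of TPM3, at 384.1 and 384.2 CPM, coincide.

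All 4 tropomyosin genes were well covered, and which of them led depended on the length used. TPM4 (ENSG00000167460), on chromosome 19 from 16177831 to 16213812 on the plus strand, had 28761 counts in replicate 1 and 27899 in replicate 2. These are 1248 and 1551 CPM, or 1400 ± 214 CPM (SD, n = 2). TPM2 (ENSG00000198467), on chromosome 9 from 35681989 to 35690053 on the minus strand, had 13630 and 8407 counts, which are 591 and 467 CPM. TPM4 was higher in replicate 2 and TPM2 in replicate 1. TPM1 (ENSG00000140416), on chromosome 15 from 63334819 to 63364114 on the plus strand, had 9960 and 8021 counts, which are 432 and 446 CPM. TPM3 (ENSG00000143549), on chromosome 1 from 154127784 to 154167124 on the minus strand, had 8851 and 6910 counts, which are 384.1 and 384.2 CPM. TPM1 and TPM3 thus moved little between the libraries, with an SD of 2.22% and 0.0199% of the mean. The tropomyosins summed to 2656 and 2849 CPM in replicates 1 and 2. TPM1, TPM2 and TPM3 give rise to muscle and nonmuscle proteins by alternative promoters and exons, and counts per gene do not tell these forms apart.

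Per kb of exonic length TPM2 led with 166 ± 27.6 CPM per kb, followed by TPM4 with 113 ± 17.3 CPM per kb (SD, n = 2). TPM2 made up 54.4% of the tropomyosins per length in replicate 1 and 44.8% in replicate 2, and TPM4 made up 29.5% and 38.2%. TPM1 and TPM3 made up 8.93 ± 0.453% and 7.59 ± 0.219% (SD, n = 2). The exons of TPM4 sum to 12375 bp over all annotated transcripts and those of TPM1 and TPM3 to 14700 and 15130 bp, whereas the longest coding transcripts have 2598, 3957 and 7064 bp. For TPM2 these lengths are 3183 and 1190 bp. Divided by the longest coding transcript, TPM4 made up 46.9 ± 6.72% and TPM2 38.8 ± 6.79% (SD, n = 2), but TPM2 was ahead in replicate 1, with 43.6% against 42.1%, and the libraries' ranges per kb of these 2 genes overlapped. Divided by the canonical transcript, TPM4 made up 39.6%, TPM2 31.2%, TPM1 25.3% and TPM3 3.81%. By raw counts TPM4 made up 50.7% and TPM2 19.3%. TPM2 and TPM4 were the 2 leading tropomyosins per length under each of these lengths, TPM4 had the higher mean by the transcript lengths, and TPM3 was the lowest of the 4 on all 3 length scales. No single leading gene can be given from these counts.

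**Figure D2:**
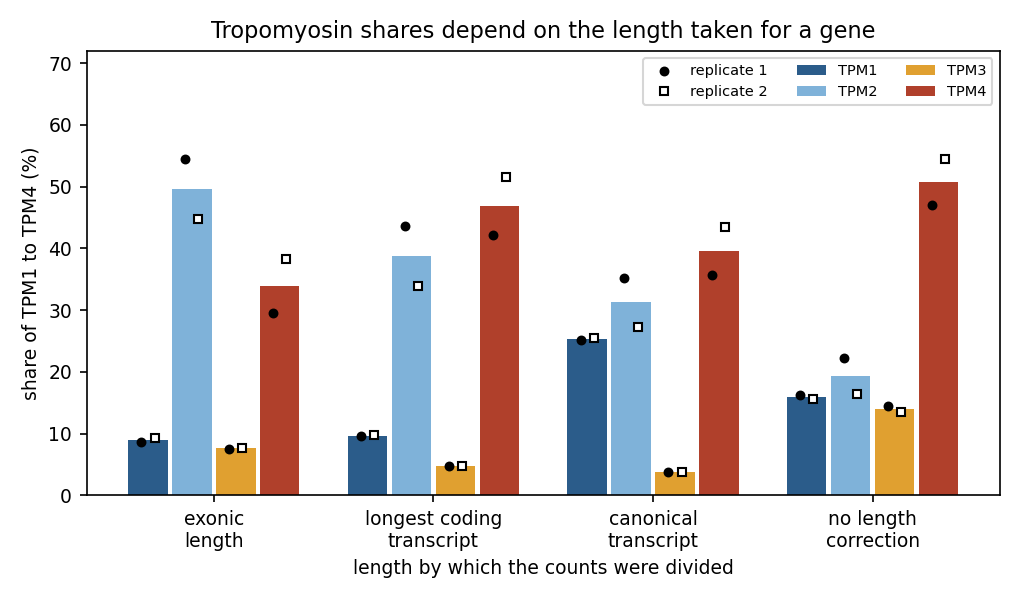
Share of each tropomyosin gene among TPM1 to TPM4 (%), as the mean of the libraries (bars) and in replicate 1 (circles) and replicate 2 (squares), with counts divided by exonic length, by the longest coding transcript or by the canonical transcript, or not divided. TPM2 leads at 49.6% by exonic length and TPM4 at 46.9% and 39.6% by the transcript lengths and 50.7% by raw counts.

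Of the contractile smooth-muscle-type genes, MYL9 was the highest by CPM and TAGLN and CNN1 were the lowest. MYL9 (ENSG00000101335), on chromosome 20 from 35169900 to 35179850 on the plus strand, had 737 counts in replicate 1 and 873 in replicate 2. These are 32.0 and 48.5 CPM, or 40.3 ± 11.7 CPM (SD, n = 2), higher in replicate 2. TAGLN (ENSG00000149591), on chromosome 11 from 117070086 to 117078180 on the plus strand, had 94 and 82 counts, which are 4.08 and 4.56 CPM. CNN1 (ENSG00000130176), on chromosome 19 from 11649582 to 11661138 on the plus strand, had 42 and 50 counts, which are 1.82 and 2.78 CPM. At counts this low, the 95% interval of the ratio of replicate 2 to replicate 1, which covers counting error only, ran from −0.28 to 0.60 on the log2 scale for TAGLN and from −0.01 to 1.24 for CNN1. Per kb of exonic length MYL9 stood at 14.3 ± 4.17, ACTA2 at 3.14 ± 0.292, CNN1 at 0.811 ± 0.239 and TAGLN at 0.659 ± 0.0518 CPM per kb (SD, n = 2). The full order per kb of exonic length was ACTB, ACTG1, TPM2, TPM4, TPM1, TPM3, MYL9, ACTA2, CNN1 and TAGLN. Of the neighbours in this order, CNN1 and TAGLN had library ranges that overlapped, so their order was not resolved, and no other pair of neighbours overlapped. By canonical transcript the ranges of MYL9 and ACTA2 overlapped instead, and CNN1 was above TAGLN in both libraries. Per kb of exonic length the 4 genes summed to 0.606% of ACTB plus ACTG1 in replicate 1 and 0.957% in replicate 2, and MYL9 alone gave 0.431% and 0.755%.

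Each of CNN1, TAGLN and MYL9 was a minor gene of its family. CNN2, the calponin found widely outside muscle, made up 86.3 ± 2.37% of the calponins per exonic length, CNN3 made up 12.8 ± 2.73% and CNN1 0.849 ± 0.360% (SD, n = 2). CNN2 was 142 times CNN1 per length in replicate 1 and 79.8 times in replicate 2. TAGLN2, the transgelin of nonmuscle cells, had 1050 and 824 CPM and made up 99.8 ± 0.0363% of the transgelins per length, and TAGLN made up 0.162 ± 0.0402% (SD, n = 2). TAGLN3, a transgelin of neurons, had 1 count in replicate 1 and none in replicate 2. Among the regulatory light chains, MYL12B made up 68.1 ± 2.83%, MYL12A 27.2 ± 0.693% and MYL9 4.71 ± 2.14% (SD, n = 2). MYL12A and MYL12B encode the light chains of nonmuscle myosin II in most cells. The share of MYL9 was 3.20% in replicate 1 and 6.23% in replicate 2. With the longest coding transcript the shares were 52.1% for MYL12B, 45.3% for MYL12A and 2.61% for MYL9, and with the canonical transcript 52.8%, 44.7% and 2.47%.

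**Figure D3:**
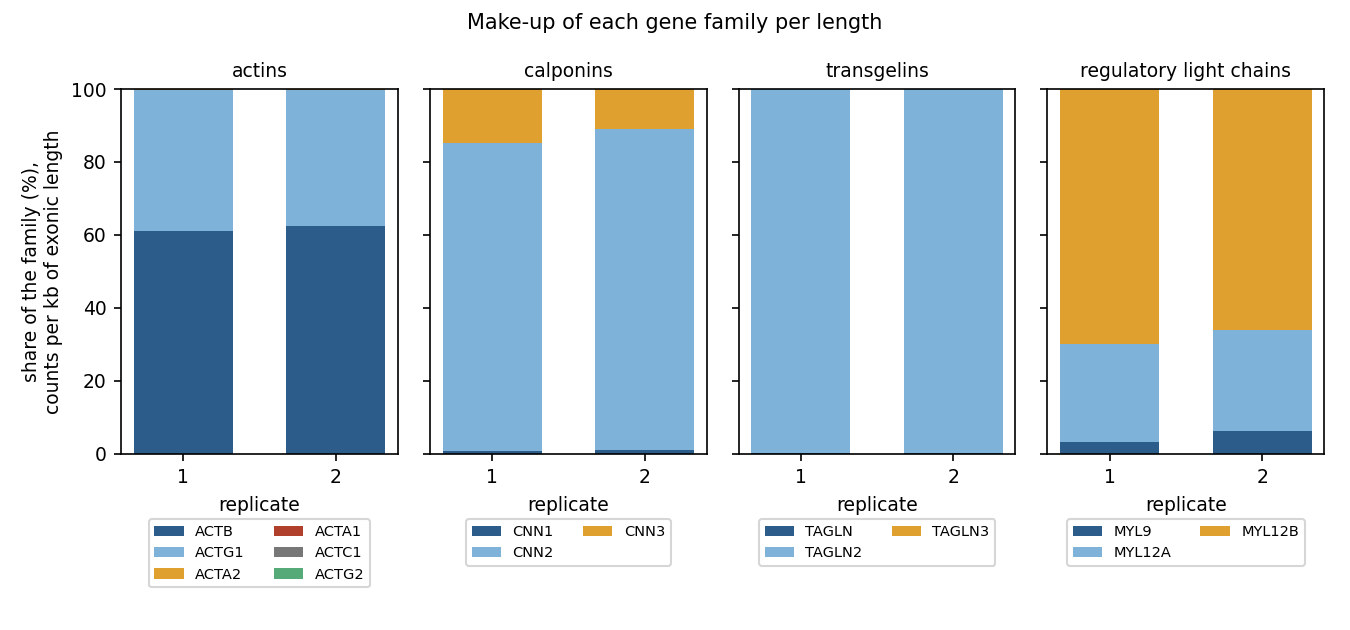
Share of each gene within its family (%), from counts per kb of exonic length, stacked for replicates 1 and 2. ACTB and ACTG1 fill the actin bars, CNN2 the calponin bars (86.3% on average) and TAGLN2 the transgelin bars (99.8%), and ACTA2, ACTA1, ACTC1, ACTG2, TAGLN and TAGLN3 are too small to see.

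For each gene the exact binomial test in edgeR was run between the replicates, which asks whether 2 libraries differ by more than counting error and says nothing of conditions. After Benjamini-Hochberg adjustment over 13744 genes with at least 10 counts, 57.7% of all genes differed, 27.6% higher in replicate 1 and 30.1% higher in replicate 2. Of the 10 members 5 differed, a share close to this background. ACTB, ACTG1 and TPM2 were higher in replicate 1, with log2 ratios of replicate 2 to replicate 1 of −0.17, −0.26 and −0.34 and adjusted p of 1.04e-213, 6.28e-272 and 1.70e-63 in the exact binomial test. TPM4 and MYL9 were higher in replicate 2, with log2 ratios of 0.31 and 0.60 and adjusted p of 1.54e-146 and 4.60e-16 in this exact test. The small p-values reflect deep counts, and the largest of these differences, that of MYL9, was 1.52-fold. ACTA2, TPM1, TPM3, TAGLN and CNN1 did not pass, with log2 ratios of −0.19, 0.05, 0.00043, 0.16 and 0.61 and adjusted p of 0.134, 0.0630, 1, 0.590 and 0.0761 in the exact test. TPM1 passed with DESeq2 size factors, at a log2 ratio of 0.05, so that 6 members then differed. The median absolute log2 ratio of all tested genes was 0.31.

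The difference between the libraries moved with gene length. The median log2 ratio of replicate 2 to replicate 1 was −0.39 in the 10% of genes with the shortest exonic length and 0.44 in the 10% with the longest. TPM2, with 3183 bp of exons, lay in a length decile whose median was −0.18, and TPM4, with 12375 bp, in the longest decile, at 0.44. Relative to genes of like exonic length TPM2 was at −0.16 and TPM4 at −0.13, so that TPM4 turned from higher to lower in replicate 2 on this scale. TPM1 and TPM3, with almost equal CPM in the libraries, were at −0.40 and −0.44. ACTB and ACTG1 were at −0.09 and −0.17. MYL9 and CNN1 went against the trend: genes of their length had a median of −0.25, and relative to it they were at 0.86 and 0.86. Length here is the summed length of all annotated exons, 12375 bp for TPM4, whose longest coding transcript has 2598 bp. Deciles by transcript length were not made, so the turn of TPM4 is given for exonic length only. The part of length in these differences was not tested.

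**Figure D4:**
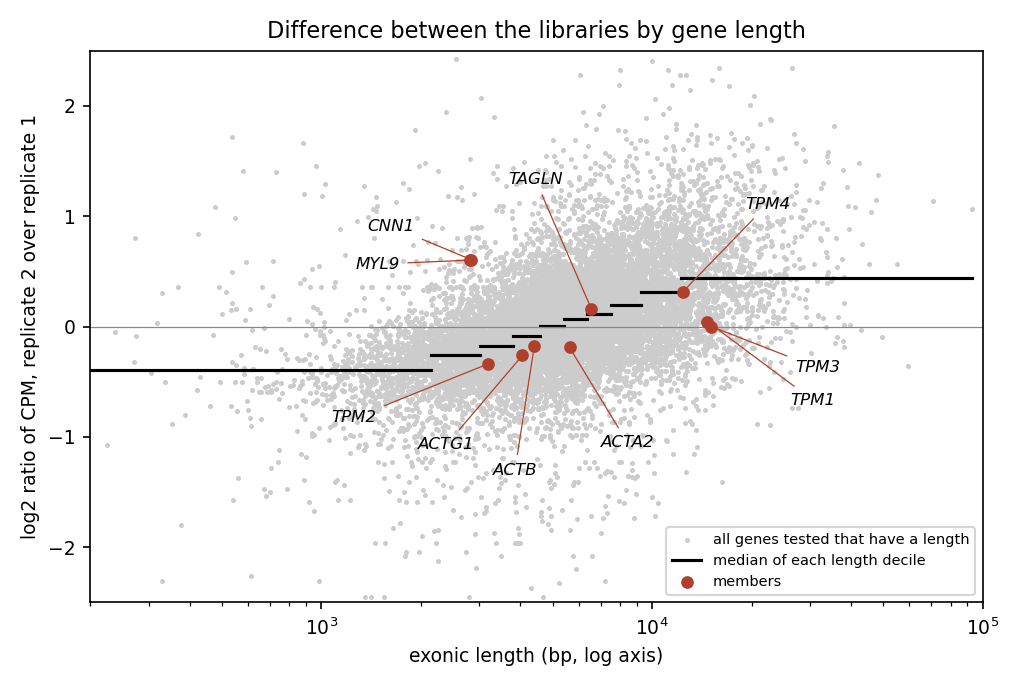
Log2 ratio of CPM, replicate 2 over replicate 1, against exonic length (bp, log axis), for the 11786 tested genes that have a length (grey), the median of each length decile (black bars) and the members (red, named). The medians rise from −0.39 to 0.44, TPM4 lies near its decile's median, the points of CNN1 and MYL9 coincide above theirs, and genes outside the drawn axes are not shown.

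Of the rest of the contractile apparatus of smooth muscle, 6 of 11 listed genes reached a mean count of 20, the minimum the study used. This share was close to the 52.8% of all symbols that reached it, and all 10 members did. The most reads fell on CALD1, the actin- and myosin-binding caldesmon, with 401 ± 96.3 CPM, and MYLK, the kinase of the regulatory light chains, with 107 ± 56.7 CPM (SD, n = 2). CALD1 and MYLK also have nonmuscle forms, which gene counts do not separate. Smoothelin (SMTN) had 70.9 ± 3.36 CPM (SD, n = 2), and the intermediate filament gene SYNM had 554 and 645 counts. PPP1R12B, a subunit of myosin phosphatase, had 300 and 499 counts, and the leiomodin LMOD1 had 38 and 17. Other genes of the list were near 0. The smooth muscle myosin heavy chain MYH11 had 4 counts in replicate 1 and 1 in replicate 2, and desmin (DES) had 9 and 0. KCNMB1, a potassium channel subunit, and PPP1R14A, an inhibitor of myosin phosphatase, each had 1 count in replicate 1 and none in replicate 2.

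The nonmuscle myosin II list stood beside this with 10 of 11 genes at this minimum or above, against 52.8% of all symbols. MYH9, the heavy chain of nonmuscle myosin IIA, had 2925 and 5058 CPM in replicates 1 and 2, and RHOA, the GTPase upstream of the ROCK kinases, had 679 ± 92.8 CPM (SD, n = 2). MYH14, the heavy chain of myosin IIC, had 13 and 15 counts. Of the 11 genes tested, 5 were higher in each library, against 57.7% of all genes that differed in either direction.

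All listed genes of filament turnover and crosslinking reached this minimum, which 52.8% of all symbols reached. All 22 listed turnover genes passed it, led in reads by the monomer-binding thymosin TMSB10, with 2386 and 1445 CPM in replicates 1 and 2, and the severing factor cofilin, CFL1, with 884 ± 173 CPM (SD, n = 2). The fewest reads fell on the formin DIAPH3, with 29.1 ± 9.77 CPM (SD, n = 2). In the exact binomial test 14 of the 22 were higher in replicate 1 and 4 in replicate 2, against 27.6% and 30.1% of all genes, and the length trend was not removed from these counts. All 14 stress fibre and crosslinker genes passed as well, with filamin A (FLNA) at 2066 and 3505 CPM and alpha-actinin 1 (ACTN1) at 1214 ± 261 CPM (SD, n = 2). FLNC, the filamin of striated muscle, had 52 and 43 counts. Here 9 of 14 were higher in replicate 2 and 3 in replicate 1, against the same shares of all genes and with the length trend left in. Tropomodulins cap the slow-growing end of tropomyosin-coated filaments. TMOD3, the widely expressed form, had 74.5 ± 12.2 CPM and TMOD1 9.95 ± 2.12 CPM (SD, n = 2), whereas TMOD4, of skeletal muscle, had 7 and 6 counts.

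Of 4 regulators of these genes 3 reached the minimum, against 52.8% of all symbols. SRF had 123 ± 31.8 CPM, and its coactivator MKL1, now called MRTFA, had 48.5 ± 6.14 CPM (SD, n = 2). MKL2, now called MRTFB, had 21.2 and 42.1 CPM in replicates 1 and 2. MYOCD, the SRF coactivator of smooth and cardiac muscle, had 0 counts in replicate 1 and 1 in replicate 2.

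**Figure D5:**
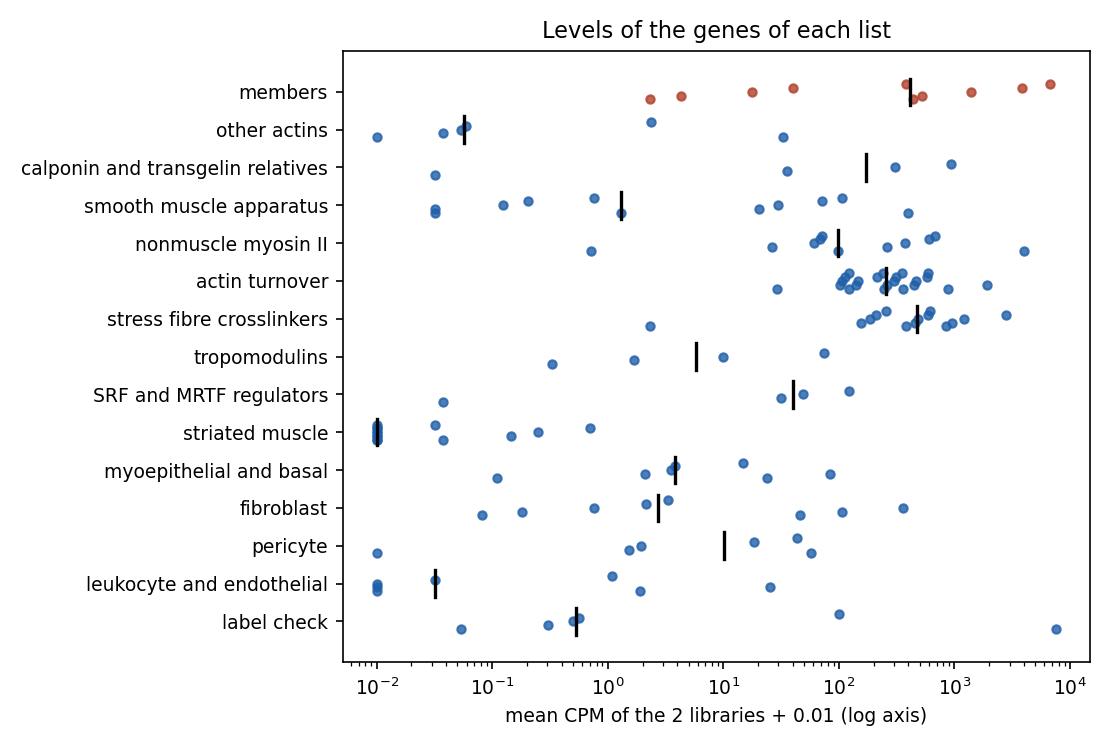
Mean CPM of the 2 libraries plus 0.01 (log axis, not corrected for length) for each gene of the members and of the 14 other lists (points), with the list's median (black bar). Turnover and crosslinker genes have medians of 254 and 470 CPM, and the median of the striated muscle list is 0.

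Markers of other cell types were mixed. None of the 14 striated muscle genes reached a mean count of 20, which 52.8% of all symbols reached, and 9 had no counts. Of 7 myoepithelial and basal genes 6 reached it, with the basal transcription factor TP63 at 84.1 ± 14.6 CPM and KRT17 at 24.0 ± 3.99 CPM (SD, n = 2). KRT14 had 450 and 183 counts in replicates 1 and 2, CDH3 90 and 68, OXTR 79 and 64 and MME 36 and 47. The basal keratin KRT5 had 2 counts in each library. The summed level of this list was 129 and 136 CPM in replicates 1 and 2. Of 8 fibroblast genes 5 reached the minimum, with COL1A1 at 360 ± 96.3 CPM and the receptor PDGFRA at 107 ± 5.42 CPM (SD, n = 2). PDGFRB followed with 46.4 ± 8.37 CPM (SD, n = 2). The others were low in replicates 1 and 2, with COL1A2 at 84 and 53 counts and DCN at 37 and 48. FAP had 23 and 9 counts, POSTN 4 and 3 and LUM 2 and 1. This list summed to 450 and 590.1 CPM, of which COL1A1 gave 292 and 428 CPM, and PDGFRA, with 111 and 103 CPM, was lower in replicate 2. Of 6 pericyte genes 5 reached this minimum, led in reads by NOTCH3 with 57.9 ± 17.4 CPM and CSPG4 with 43.4 ± 3.99 CPM (SD, n = 2). MCAM had 441 and 317 counts, RGS5 only 32 and 44 and ABCC9 27 and 33, and KCNJ8 was listed at 0. The pericyte sums were 113 and 133 CPM. Of 7 leukocyte and endothelial genes 3 reached it, the lysosomal gene CD68 with 25.2 ± 7.57 CPM (SD, n = 2), the leukocyte phosphatase PTPRC with 48 and 31 counts and the endothelial adhesion gene PECAM1 with 24 and 20 counts, and CD3E and VWF were listed at 0. That list summed to 33.7 and 22.7 CPM. The part of any such cells or cell states in the levels of the members was not tested. For the labelled cell type, the genes that the term triple-negative refers to are ESR1, PGR and ERBB2. Reads were few for PGR (2 and 0 counts) and ESR1 (11 and 9). ERBB2, which the term says is not overexpressed, had 99.7 ± 6.56 CPM (SD, n = 2). EPCAM had 6 and 6 counts and CDH1 9 and 13, and the mesenchymal filament VIM had 7542 ± 873 CPM (SD, n = 2). These last 3 genes are not part of the term.

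Some members share sequence or exonic bases with other genes. Of the 100-base windows of the longest coding transcript of TAGLN, the length of the reads, 28.9% occur exactly at 1 other place in GRCh37, against 4.68% for TPM4, 0.215% for TPM3, 0.122% for ACTB and 0 for the other 6 members. Near-identical copies that differ at single bases were not searched. TAGLN also shares 34.1% of its exonic bases with PCSK7 on the opposite strand, which had 421 and 340 counts against the 94 and 82 of TAGLN. It shares 38.1% with ENSG00000280143 on the same strand. ACTA2 shares 6.75% with FAS on the opposite strand, which had 391 and 310 counts, and 29.1% with its antisense gene ACTA2-AS1. TPM1 shares 18.0% with TPM1-AS. ENSG00000280143, ACTA2-AS1 and TPM1-AS were not counted under these names, and whether their reads fell on the members was not tested. The methods name a directional library kit, but the strand setting of the counting was not given. The low counts of TAGLN and ACTA2 are therefore uncertain in this respect.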

How the data were processed

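Bulk RNA-seq of doxorubicin-resistant SUM159 cells was examined in 2 libraries of 1 condition. Raw counts, 1 per gene symbol and library, are what the authors deposited. According to the methods and the submitters' processing notes, they worked in Galaxy with FastQC, HISAT2 on hg19 and HTSeq, and deepTools is listed too. For the versions, the annotation and the strand setting, nothing was given in the sources used here. For the RNA extraction the methods name the RNeasy kit and the labels TRI reagent. Such counting commonly omits reads that match several places or genes.

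CPM were computed here from each library's total. At these totals 1 count is 0.0434 and 0.0556 CPM. Without molecular identifiers, reads cannot be taken as independent molecules, so limits and intervals cover counting error only. Of the symbols, 19332 of 23368 (82.7%) were matched to GENCODE genes of GRCh37, which gave coordinates and lengths. Promoters came from RefSeq, GRCh38.p14.

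The replicates were compared with the exact binomial test of edgeR with Benjamini-Hochberg adjustment, called at 0.05. The square root of edgeR's common dispersion, a coefficient of variation between the replicates beyond counting error, was 22.3%. Tested on 2 simulated libraries over 13744 genes, the test recovered 100% of 200 genes seeded with a 2-fold difference, and it called 0.0738% of the rest. The simulated counts held counting error only (Poisson), so these shares do not cover the further spread between the real replicates. Only genes with at least 200 counts over both libraries were seeded, and TAGLN and CNN1 had fewer. With a single condition no test between conditions was made. Log2 ratios used a prior count of 0.5.

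All 10 members are named, and from each further list the 2 genes with the most reads and the lowest or those without counts. CNN3, MYL12A, MYL12B, MKL2 and any further genes named from the lists were chosen after their values were seen. The members and lists were chosen with earlier results of these data known. Values of some listed genes are not reported here. Alternatives covered gene length, scaling, the filter, the minimum count and each library left out. R 4.3.3 with edgeR 4.0.16 and DESeq2 1.42.0 (size factors) and Python 3.11.15 with numba 0.67.0, numpy 2.4.6, matplotlib 3.10.9, pandas 2.3.3 and scipy 1.17.1 were used.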

Additional observations from a re-analysis of the deposited data

How the results depend on the processing

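The share of ACTB among the actins was 61.8% per exonic length, 63.1% with the longest coding transcript, 63.7% with raw counts and 65.0% with the canonical transcript, an alternative chosen after seeing the data. That of TPM2 among the tropomyosins was 49.6%, 38.8%, 19.3% and 31.2% in the same order, with the length used as the only difference, and TPM4 had the higher mean except per exonic length. With single libraries the shares ran from 61.1% to 62.5% and from 44.8% to 54.4%. The 4 smooth-muscle-type genes stayed between 0.537% and 0.781% of ACTB plus ACTG1 under these lengths and between 0.606% and 0.957% with single libraries. The binomial test called 7792 to 7958 genes, against 7930, without the filter and under TMM or DESeq2 scaling, and 5 members, or 6 with DESeq2 size factors. The log2 ratio of TPM3 turned from 0.00043 to −0.0061 under TMM. That of TPM4 turned from 0.31 to −0.13 relative to genes of like exonic length, and transcript lengths were not tried for this step. A minimum mean count of 100 kept 8 of 10 members. No paired analysis was possible because the replicates belong to 1 group. Depth limits TAGLN, CNN1 and the genes under about 20 counts.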
